A study of Mus musculus with 6 samples.

Results

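Serpins are the largest family of serine protease inhibitors, and the mouse carries them in clades A to I, named by a letter after the stem Serpin. The 59 genes described here were every gene of that name form with a probe on the array, measured by 78 of the 41174 different probes that are not controls, and the array names 27376 genes in all. The samples were total RNA from the testes of 3 *Prss55*-/- and 3 wt male mice aged 6 to 8 weeks, on a mixed 129Sv/C57BL/6 background, with 1 single-dye whole mouse genome array for each mouse. *Prss55* encodes a testicular serine protease of the chymotrypsin fold, and the null allele was made by homologous recombination and bred from heterozygous intercrosses, so the allele is constitutive. The RNA was that of the whole testis, in which fewer cells of a type and less RNA per cell cannot be told apart.

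A serpin offers a loop to its target protease as bait. When the protease cuts the loop, the inhibitor changes shape and stays bound to the enzyme, which destroys both, so each molecule works once. Most clade A serpins are secreted plasma proteins of the antitrypsin and antichymotrypsin type, and most clade B serpins stay inside cells. A few members, such as the collagen chaperone *Serpinh1* and the hormone carriers *Serpina6* and *Serpina7*, inhibit no protease. In the testis the best known member is *Serpina5*, the protein C inhibitor, whose loss makes male mice infertile.

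The probes are 60 bases long and named by the array files, with positions on mouse build mm9. The 6 probes on which the comparison of genotypes turns are printed so that each measured stretch can be found, with no part marked.

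*Serpine3*, chr14:63308443-63310908: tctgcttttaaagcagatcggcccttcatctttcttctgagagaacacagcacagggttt

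*Serpini2*, chr3:75046279-75046308: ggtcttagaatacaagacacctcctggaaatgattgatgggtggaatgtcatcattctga

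*Serpina3a*, chr12:105359777-105359836: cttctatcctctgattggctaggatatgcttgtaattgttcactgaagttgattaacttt

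*Serpinf2*, chr11:75245479-75245538: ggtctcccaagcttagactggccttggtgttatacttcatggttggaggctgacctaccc

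*Serpina1b*, chr12:104968689-104970188: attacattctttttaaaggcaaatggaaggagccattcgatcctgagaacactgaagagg

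*Serpina3g*, chr12:105480045-105480104: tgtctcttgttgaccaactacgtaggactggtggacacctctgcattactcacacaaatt

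The 60 bases of the *Serpine3* probe cover 2466 bases of the genome and those of *Serpina1b* cover 1500, so each of these alignments holds a gap. For *Serpini2* the files give only 30 positions. No stretch longer than 15 bases was shared by probes of different serpin genes over 2983 such pairs. By the accession lists in the files, however, 7 of the 78 probes also carry transcripts that RefSeq assigns to a second serpin gene or more. Only 69 of the 78 probes have their own transcript in RefSeq, so the true number may be higher. The *Serpina1b* and *Serpina3g* probes carry no transcript that could be matched to a RefSeq gene. The *Serpina1c* probe carries transcripts of 4 genes (*Serpina1b*, *Serpina1c*, *Serpina1d* and *Serpina1e*) and the *Serpina1d* probe those of 3. The *Serpinb9g* and *Serpinb9f* probes both list *Serpinb9f* and *Serpinb9g*. Signals of these probes belong to the group of genes rather than to the one in the name.

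All 6 arrays had 69.5% to 72.9% of their spots well above background by the scanner software, with 0 saturated spots. The *Prss55*-/- arrays lay on slide 1, wt replicates 1 and 2 on slide 3 and wt replicate 3 on slide 2, so slide and genotype cannot be told apart. The probe for the targeted gene *Prss55* gave a normalized log2 signal of 15.08, 14.95 and 14.93 on the *Prss55*-/- arrays and 15.87, 15.77 and 16.01 on the wt arrays. Every *Prss55*-/- array was lower, by 0.90 on average (SE 0.080, limma adjusted p = 0.010), yet the signal stayed bright. The paper reports that *Prss55* RNA was absent by RT-PCR, and the protein by Western blot and immunofluorescence. Whether the array probe lies within the deleted part was not established here, so it checks the labels only by its lower level. That call was lost without *Prss55*-/- replicate 2 (limma adjusted p = 0.060), *Prss55*-/- replicate 3 (0.070) or wt replicate 1 (0.063), and by the methods' t-test (0.071). It was also lost with the replicate number as a block (limma adjusted p = 0.101).

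The testis gave signal for most serpin genes. A gene was called detected if the 3 arrays of either genotype all read 1 of its probes well above background. This held for 36 of the 59 genes, 28 of them on all 6 arrays. A further 7 genes were seen on some arrays only and 16 on none. Counted by probe, 42 of 78 serpin probes (53.8%) were detected, against 69.5% of all probes on the array. Of these 42 probes, 33 were above background on all 6 arrays, 7 passed only through the wt arrays and 2 only through the *Prss55*-/- arrays, so those 9 had to differ to some degree.

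**Figure D1:**
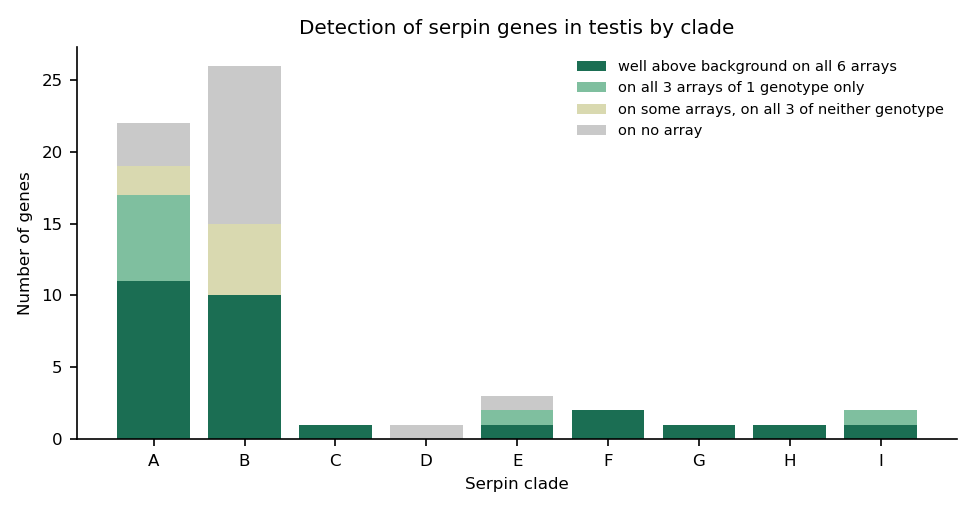
Number of serpin genes in each clade (bars, by clade on the x axis) by the arrays on which any probe lay well above background. Clade A had 17 of 22 genes detected, clade B 10 of 26, and clade D none of its 1 gene.

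In clade A, 17 of 22 genes were detected, 11 of them on all 6 arrays. *Serpina3f* and *Serpina4-ps1* were seen on 1 array each, and *Serpina11*, *Serpina12* (vaspin) and *Serpina3i* on none. In clade B, 10 of 26 genes were detected, all 10 on all 6 arrays. These were *Serpinb1a*, *Serpinb1c*, *Serpinb2*, *Serpinb3c*, *Serpinb6a* to *Serpinb6d*, *Serpinb9* and *Serpinb9g*. *Serpinb3b*, *Serpinb8*, *Serpinb9d*, *Serpinb9e* and *Serpinb10* were seen on some arrays. The 11 clade B genes seen on no array were *Serpinb1b*, *Serpinb3a*, *Serpinb3d*, *Serpinb5* (maspin), *Serpinb7*, *Serpinb9b*, *Serpinb9c*, *Serpinb9f*, *Serpinb11*, *Serpinb12* and *Serpinb13*. Of the small clades, *Serpinc1*, *Serpinf1*, *Serpinf2*, *Serping1*, *Serpinh1*, *Serpini1* and *Serpini2* were all detected, *Serpine3* was detected while *Serpine2* was not, and *Serpind1* (heparin cofactor II) was not.

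The array files place the clade B genes in 2 chromosomal groups. Of the 12 clade B genes within 0.726 Mb of chromosome 1, 2 were detected. Of the 14 within 1.14 Mb of chromosome 13, 8 were. The clade A genes, other than *Serpina7* on chromosome X, lay within 0.799 Mb of chromosome 12, where 15 of 21 genes had a detected probe with a position. These counts describe neighbouring copies of related genes and were not tested.

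Many clade A and clade C serpins are made by the liver and carried in blood. The 4 liver markers *Alb*, *Apoa1*, *Ttr* and *Fga* were well above background on 0 of the 6 arrays. Of 5 epididymis markers, *Lcn9* alone was tested, and *Crisp1*, *Lcn5*, *Lcn8* and *Adam7* were well above background on 0 arrays. In contrast, 3 of 3 blood markers and 4 of 5 pancreas markers were detected and tested. The source of the serpin RNA was not tested. Markers of testicular cells were detected, with 6 of 6 spermatid, 5 of 5 spermatocyte, 7 of 7 Sertoli cell and 4 of 4 Leydig cell genes on the array among those tested.

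The second question was how the serpins differed between *Prss55*-/- and wt testis. *Serpine3*, a clade E serpin with no settled role, rose in *Prss55*-/- testis, and it was the 1 gene of the 36 tested that passed a limma adjusted p of 0.05. Over all 28606 tested probes 346 passed, or 1.21%, so 1 call among 42 serpin probes is near the share over the array, and the result concerns *Serpine3* and not the family. *Serpini2*, a clade I serpin known from pancreas and myoepithelium, was lower and passed the study's own pair of thresholds (p below 0.05 without adjustment and a change of 2-fold or more, here with the limma p), as did *Serpine3*. These were 2 of the 42 tested serpin probes, where 0.608% of all tested probes passed the pair. Both probes passed the filter only through the genotype in which they were high, which favours such a call. With the filter on all 6 arrays, 0 serpin genes passed the pair.

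The *Serpine3* probe gave a normalized log2 signal of 10.24, 10.28 and 10.16 on *Prss55*-/- replicates 1 to 3 and 5.19, 5.47 and 5.85 on wt replicates 1 to 3. The *Prss55*-/- arrays lay close together and every one of them was more than 4 log2 units above every wt array, with a gap of 4.31 between the nearest arrays. The mean was 10.23 ± 0.060 (SD, n = 3) against 5.50 ± 0.33 (SD, n = 3). The difference was 4.72 (SE 0.16, 95% interval 4.33 to 5.12, limma adjusted p = 0.000604). In wt testis the probe was well above background on 2 of 3 arrays, the exception being wt replicate 1. Each wt value below its array's lowest signal of any probe well above background was raised to that signal. The *Prss55*-/- level was then 26.0-fold higher on the processed signal. This is not a strict bound, because probes not well above background can read higher than that lowest signal. On wt replicate 1 the lowest signal was 5.26, and a *Serpina3f* probe not well above background read 5.31. Normexp background correction, which adds an offset of 50 to every signal, gave a difference of 3.32, or 9.97-fold. The two-sided exact permutation test on the group means gave p = 0.1, the smallest that 3 mice against 3 allow, and it gave the same for the other 5 serpin probes printed above.

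**Figure D2:**
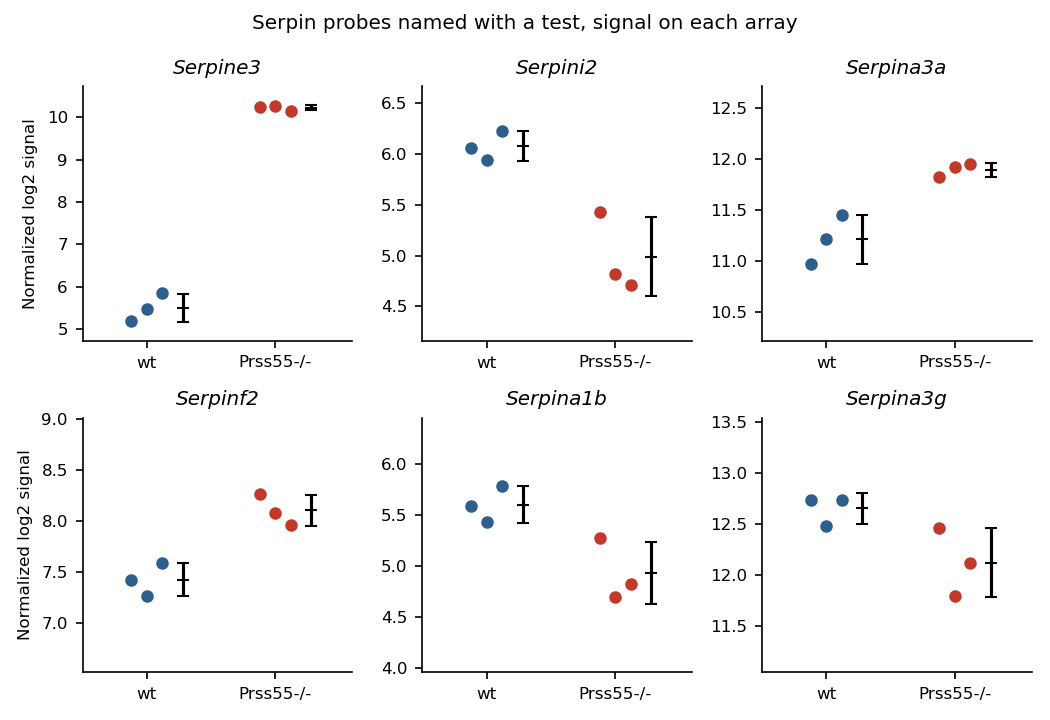
Normalized log2 signal (y axis) of the 6 serpin probes named with a test, with wt arrays in blue, *Prss55*-/- arrays in red, and the mean ± SD of 3 arrays in black at the right of each group. The y axis covers 2.5 log2 units or more and does not start at 0. The *Serpine3* arrays lie 4.72 log2 units apart on average, and the other 5 differences range from 0.53 to 1.08 in size.

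The neighbours of *Serpine3* on chromosome 14 were read from the same files. The array holds 26 probes of 18 other genes centred within 1 Mb of the *Serpine3* probe, and 16 probes of 11 genes were tested. Their differences ran from -0.74 to 0.98 with a median of 0.015. *Ints6*, a subunit of the Integrator complex, has a probe 2.79 kb from that of *Serpine3* on the opposite strand. Its signal was 13.80 ± 0.053 (SD, n = 3) in *Prss55*-/- and 13.67 ± 0.051 (SD, n = 3) in wt testis, and a second *Ints6* probe 53.1 kb away differed by 0.085. Neither passed (limma adjusted p = 0.286 and 0.561), and the 95% interval of the nearer probe, -0.0081 to 0.25, lay below the *Serpine3* difference.

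Among those neighbours 2 of the 16 probes, of 2 genes, passed the adjusted threshold, against 1.21% of all tested probes. *Gucy1b2*, a subunit of soluble guanylyl cyclase at -298 kb, gave 8.20, 8.18 and 8.06 on *Prss55*-/- arrays and 7.08, 6.995 and 7.41 on wt arrays. It was 0.98 higher (limma adjusted p = 0.024), a call lost when *Prss55*-/- replicate 2 (0.111), *Prss55*-/- replicate 3 (0.098), wt replicate 1 (0.116) or wt replicate 2 (0.076) was left out. It was also lost without a filter (0.069), by the methods' t-test (0.111) and with the replicate number as a block (0.133). *Wdfy2*, which encodes a protein that binds endosomal membranes, had 1 probe that was lower by 0.74 (limma adjusted p = 0.0072), while its other probe differed by 0.17 (limma adjusted p = 0.348). The *Wdfy2* call was lost without *Prss55*-/- replicate 2 (0.051) or *Prss55*-/- replicate 3 (0.054), and with the replicate number as a block (0.090). *Prss55* itself lies 1.38 Mb from *Serpine3*, outside this window.

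**Figure D3:**
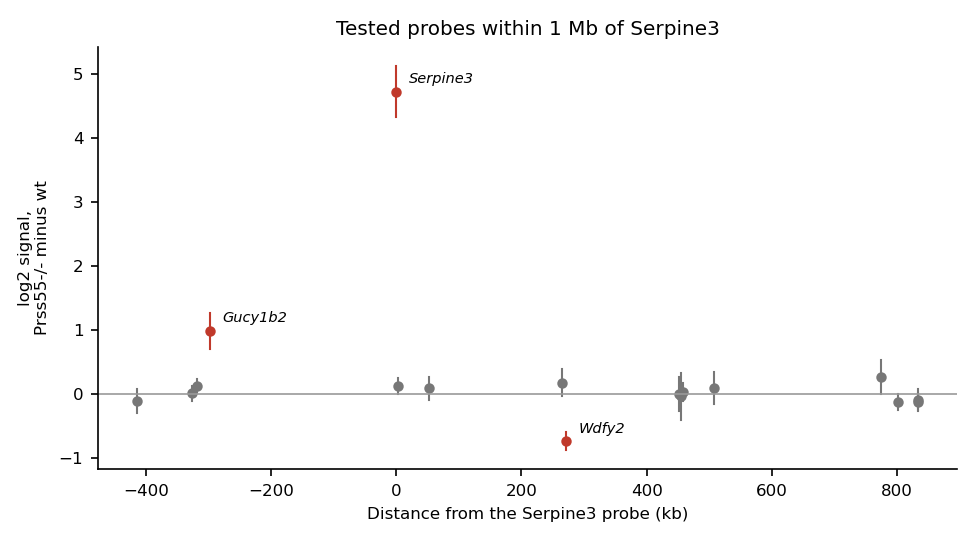
Difference in log2 signal between *Prss55*-/- and wt testis (y axis) for *Serpine3* and the 16 tested probes within 1 Mb, by distance from the *Serpine3* probe in kb (x axis). Bars are 95% intervals from limma and red marks a limma adjusted p below 0.05. *Serpine3* stands at 4.72 while the others lie between -0.74 and 0.98.

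*Serpini2* gave 5.43, 4.82 and 4.71 on *Prss55*-/- arrays and 6.05, 5.94 and 6.23 on wt arrays. The groups did not overlap, and the nearest arrays were 0.51 apart. The difference of -1.08 (SE 0.20, 95% interval -1.56 to -0.60) had an unadjusted limma p of 0.0014 and an adjusted p of 0.066. Only *Prss55*-/- replicate 1 was well above background in that genotype. With the lower values raised as for *Serpine3*, the wt level was 1.90-fold higher on the processed signal. With normexp the difference was -0.46, or 1.37-fold. Without *Prss55*-/- replicate 3 it no longer passed the pair of thresholds, and without *Prss55*-/- replicate 1 it passed the adjusted one as well. With any array but *Prss55*-/- replicate 1 left out, its limma adjusted p was 0.101 to 0.222. Of the 5 pancreas markers 4 were tested and differed by -0.079 to 0.36, with 0 past the adjusted threshold. The other clade I gene, *Serpini1* (neuroserpin, an inhibitor of tissue plasminogen activator), lies on the same chromosome, and both probes fall within 0.400 Mb. It was 9.95 ± 0.11 (SD, n = 3) in *Prss55*-/- and 9.75 ± 0.041 (SD, n = 3) in wt testis, without overlap, and did not pass (limma adjusted p = 0.197).

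Differences of the remaining serpins were small beside that of *Serpine3*. Of the 33 probes above background on all 6 arrays, 18 were lower and 15 higher in *Prss55*-/- testis, with a median of -0.086, where the median over all 28606 tested probes was 0.0019. The other 9 tested probes passed the filter through 1 genotype only, which favours a direction. Of the 42 together, 32 differed by less than 0.5. An unadjusted limma p below 0.05 was reached by 14 of the 42 probes, 7 higher and 7 lower, where 19.1% of all tested probes reached it. The 2 genotypes did not overlap for 12 of the 42, 6 in each direction, against 26.3% of all tested probes. *Prss55*-/- replicate 2 was the lowest of the 6 arrays for 19 of the 42 serpin probes and for 12.7% of all tested probes. With that array left out, *Serpine3* was again the 1 serpin past the adjusted threshold.

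**Figure D4:**
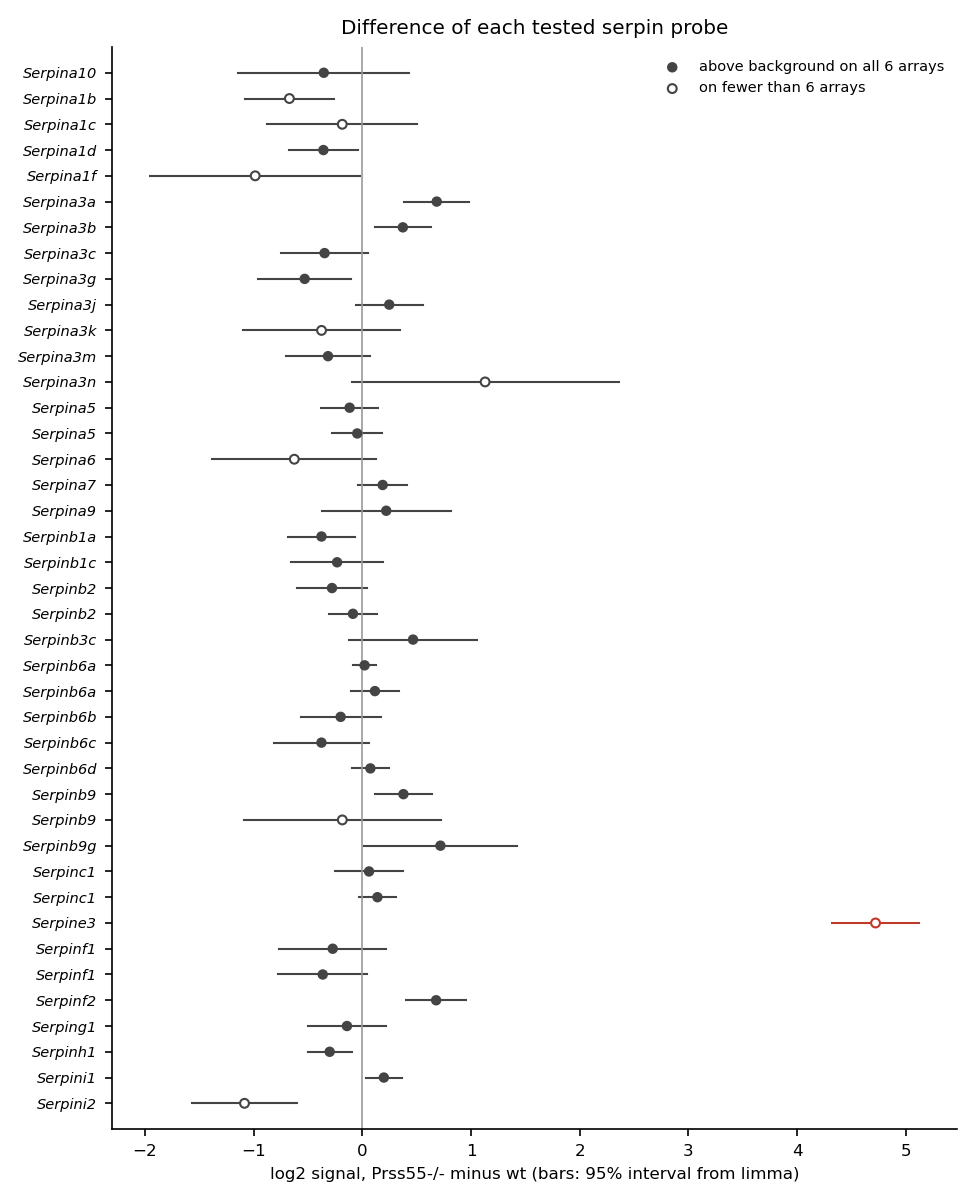
Difference in log2 signal, *Prss55*-/- minus wt (x axis), of the tested serpin probes in order of gene name (y axis), with 1 gene not shown. Bars are 95% intervals from limma, open circles mark probes above background on fewer than 6 arrays, and red marks the limma adjusted p below 0.05 of *Serpine3*. Apart from *Serpine3* the values lie between -1.08 and 1.13.

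Clade A holds the antitrypsin-like *Serpina1* genes, inhibitors of elastase, and the *Serpina3* genes, relatives of antichymotrypsin that multiplied in rodents. Of its 12 probes above background on all 6 arrays 7 were lower and 5 higher, with a median of -0.082. The other 6 of its 18 tested probes passed the filter through 1 genotype. None of the 18 passed the adjusted threshold, while 2 higher and 4 lower ones had an unadjusted limma p below 0.05, where 19.1% of all tested probes did. Among the 4 lower ones, *Serpina1b* and *Serpina1f* passed the filter only through the wt arrays, in which they were high. *Serpina3a* gave 11.82, 11.92 and 11.95 on *Prss55*-/- arrays and 10.97, 11.22 and 11.45 on wt arrays. All 3 *Prss55*-/- values were above the wt values, and the difference of 0.68 (SE 0.12) had a limma adjusted p of 0.066. Without wt replicate 3 that p was 0.038, but with any other array left out it was 0.078 to 0.244. By the methods' t-test the adjusted p was 0.173.

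*Serpina3g*, also known as an inhibitor of cysteine proteases, gave 12.47, 11.79 and 12.12 on *Prss55*-/- arrays and 12.74, 12.48 and 12.74 on wt arrays. The groups were separated by only 0.017, and the difference of -0.53 (SE 0.18) did not pass (limma adjusted p = 0.190). *Serpina3c* (-0.35, 10.07 ± 0.30 against 10.42 ± 0.16, SD, n = 3) and *Serpina3m* (-0.32, 10.84 ± 0.29 against 11.16 ± 0.15, SD, n = 3) also had their lowest value on *Prss55*-/- replicate 2 and overlapped between genotypes. The 4 Leydig cell markers gave unlike patterns. *Cyp17a1*, an enzyme of androgen synthesis, was 14.32, 13.82 and 13.96 on *Prss55*-/- and 14.51, 14.25 and 14.47 on wt arrays. The brightest probe of *Star*, which moves cholesterol into mitochondria, was 12.68, 10.49 and 10.46 against 12.05, 11.42 and 12.34, and its difference of -0.73 was -0.37 without *Prss55*-/- replicate 2. *Hsd3b6*, another enzyme of steroid synthesis, was 10.47, 10.77 and 10.83 against 10.17, 10.02 and 10.77. *Hsd3b6* thus lay higher in *Prss55*-/- testis by 0.37, while *Cyp17a1*, *Star* and *Cyp11a1* lay lower. Over the 4 genes the median difference was -0.50, and their mean log2 signal ran from 11.71 to 12.55 in *Prss55*-/- and from 12.07 to 12.61 in wt testis. None of them passed the adjusted threshold, and their part in the *Serpina3* values was not tested.

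*Serpina3n*, induced elsewhere by inflammation, varied most within a genotype among the tested serpins. It gave 5.22, 5.95 and 7.21 on *Prss55*-/- arrays, all well above background, and 5.05, 5.35 and 4.59 on wt arrays, of which 1 was. The groups overlapped, and the difference of 1.13 (SE 0.50) did not pass (limma adjusted p = 0.293). The other detected *Serpina3* genes with values above the wt mean were *Serpina3b* (0.37, without overlap, limma adjusted p = 0.144) and *Serpina3j* (0.25). *Serpina3k* differed by -0.38 on a probe above background on 5 arrays, and its other probe was at background.

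*Serpina1b* gave 5.27, 4.70 and 4.83 on *Prss55*-/- arrays and 5.59, 5.43 and 5.79 on wt arrays. The wt values were all higher, by 0.67 on average (SE 0.17, limma adjusted p = 0.119). Only 1 *Prss55*-/- array was well above background, and with values raised as for *Serpine3* the wt level was 1.42-fold higher. With normexp the difference was -0.15, or 1.11-fold. Without *Prss55*-/- replicate 1 the limma adjusted p was 0.034, but with any other array left out it was 0.165 to 0.323. By the methods' t-test the adjusted p was 0.244. The probe named *Serpina1d* was 10.04 ± 0.24 (SD, n = 3) in *Prss55*-/- and 10.40 ± 0.12 (SD, n = 3) in wt testis, and that named *Serpina1c* was 5.81 ± 0.60 against 6.00 ± 0.062 (SD, n = 3), neither passing (limma adjusted p = 0.222 and 0.757). *Serpina1f* was 6.17, 5.36 and 4.61 on *Prss55*-/- and 6.35, 6.05 and 6.70 on wt arrays. Its difference of -0.99 overlapped between genotypes and did not pass (limma adjusted p = 0.255). RefSeq lists *Serpina1a* and *Serpina1e* too, among 10 of 69 mouse serpins for which the array files name no probe, and these were not analysed here by name.

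*Serpina5* differed little between genotypes. Its brighter probe was 13.40 ± 0.21 (SD, n = 3) in *Prss55*-/- and 13.51 ± 0.021 (SD, n = 3) in wt testis, a difference of -0.12 with a 95% interval of -0.38 to 0.15, and its other probe differed by -0.047. The hormone carriers gave -0.63 for *Serpina6*, which binds glucocorticoids and was above background on 1 *Prss55*-/- array and all 3 wt arrays, and 0.19 for *Serpina7*, which binds thyroxine. *Serpina9* differed by 0.22 and *Serpina10*, an inhibitor of activated coagulation factor X, by -0.35 on 1 probe while its other probe was at background on all 6 arrays. None of these passed.

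The pseudogene *Serpina4-ps1* shows how far a single dim spot can stand apart. Its brighter probe gave 7.95 on wt replicate 1 and 2.72 to 4.30 on the other 5 arrays. The other probe, which shares 31 bases with it, gave 2.75 on that same wt array and 2.96 to 4.08 on the rest. Only the 7.95 was well above background.

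The clade B serpins act mostly within cells, on granzymes, cathepsins and neutrophil elastase. Of the 13 tested probes 7 were lower and 6 higher, with a median of -0.086, and 0 passed the adjusted threshold. An unadjusted limma p below 0.05 was found for 2 higher and 1 lower one, where 19.1% of all tested probes had it. The brighter *Serpinb6a* probe, for an inhibitor of thrombin and of cathepsin G, gave 13.73, 13.75 and 13.71 on *Prss55*-/- arrays and 13.71, 13.69 and 13.72 on wt arrays. The difference of 0.021 had a 95% interval of -0.082 to 0.12. Its second probe differed by 0.12, and its dimmest was at background on all 6 arrays. The related *Serpinb6b*, *Serpinb6c* and *Serpinb6d* differed by -0.20, -0.38 and 0.074.

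*Serpinb1a*, an inhibitor of neutrophil elastase, was 10.63, 10.13 and 10.43 on *Prss55*-/- arrays and 10.80, 10.81 and 10.71 on wt arrays. The *Prss55*-/- values were all lower, by 0.38 on average, with a limma adjusted p of 0.195. *Serpinb9*, the inhibitor of granzyme B, gave unlike signs on 2 probes. The brighter one was 7.22 ± 0.11 (SD, n = 3) in *Prss55*-/- and 6.84 ± 0.19 (SD, n = 3) in wt testis (limma adjusted p = 0.146), and the other was 5.58 ± 0.74 against 5.76 ± 0.29 (SD, n = 3, limma adjusted p = 0.815). The probe named *Serpinb9g* was 6.59, 6.15 and 7.15 on *Prss55*-/- and 5.72, 6.32 and 5.70 on wt arrays. The groups overlapped and the difference of 0.72 did not pass (limma adjusted p = 0.254).

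*Serpinb2*, plasminogen activator inhibitor 2, was read by a pair of probes that share 20 bases, in capitals. They gave like values, whereas the overlapping *Serpina4-ps1* probes described above did not.

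*Serpinb2* first probe, chr1:109421456-109421515: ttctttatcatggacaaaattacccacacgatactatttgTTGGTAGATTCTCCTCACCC

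*Serpinb2* second probe, chr1:109421496-109421555: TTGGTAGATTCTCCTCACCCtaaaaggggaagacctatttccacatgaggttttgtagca

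The first probe was 5.59 ± 0.13 (SD, n = 3) in *Prss55*-/- and 5.68 ± 0.11 (SD, n = 3) in wt testis. The second was 5.66 ± 0.17 and 5.94 ± 0.21 (SD, n = 3). Both differences, -0.086 and -0.28, overlapped between genotypes and did not pass. *Serpinb3c*, a relative of the squamous cell carcinoma antigens, differed by 0.47 on 1 probe and was at background on another, and *Serpinb1c* differed by -0.23 likewise.

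Of the 59 genes 18 had more than 1 probe. All probes were tested for 5 of these, some for 6 and none for 7, so a gene not detected by its single probe may still be transcribed. *Serpinb10* is a case of the last kind. Its brighter probe gave 5.02, 5.22 and 5.10 on *Prss55*-/- arrays, 2 of them well above background, and 2.90, 4.53 and 4.62 on wt arrays, none of which was. It was left untested by the filter, and its other probe stayed between 2.83 and 2.94.

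Among the plasma protease inhibitors of the small clades, *Serpinf2*, the plasmin inhibitor, gave 8.27, 8.08 and 7.97 on *Prss55*-/- arrays and 7.42, 7.26 and 7.59 on wt arrays. The groups did not overlap, and the difference of 0.68 (SE 0.11) had a limma adjusted p of 0.057, just above the threshold. That p was 0.025 with normexp and 0.049 with the filter on all 6 arrays. It was 0.054 to 0.195 with 1 array left out, and the methods' t-test gave an adjusted p of 0.156. Its neighbour *Serpinf1*, pigment epithelium-derived factor, lies within 0.0220 Mb of it on chromosome 11 and differed the other way, by -0.27 and -0.36 on its 2 probes, neither passing (limma adjusted p = 0.501 and 0.304). The 2 probes of *Serpinc1* (antithrombin) differed by 0.061 and 0.14, and *Serping1* (the C1 inhibitor) was 11.28 ± 0.26 (SD, n = 3) in *Prss55*-/- and 11.42 ± 0.16 (SD, n = 3) in wt testis.

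*Serpine2*, protease nexin-1, stayed between 3.65 and 4.72 and was above background on 0 arrays. Of the genes of plasminogen activation, 5 of 7 were tested and all 5 were lower in *Prss55*-/- testis by 0.022 to 0.18, with a median of -0.15. None passed the adjusted threshold in limma or by the methods' t-test. Counted by any probe, 1 of the 5, *Lrp1*, had an unadjusted limma p below 0.05, as did 19.1% of all single tested probes. *Plau* and *Plg* were above background on 0 arrays, and *Plat*, tissue plasminogen activator, was detected.

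*Serpinh1*, the collagen chaperone HSP47, was 9.59, 9.34 and 9.61 on *Prss55*-/- arrays and 9.77, 9.85 and 9.82 on wt arrays. The wt values were all higher, and the difference of -0.30 (SE 0.084) did not pass (limma adjusted p = 0.141). Of 11 genes for collagens and their folding enzymes, 9 were lower and 2 higher, from -0.59 (*Col1a1*) to 0.12 (*Col5a1*) with a median of -0.11, and 0 passed. *Col1a1* gave 11.55, 10.19 and 11.60 on *Prss55*-/- and 11.67, 11.56 and 11.88 on wt arrays, so that *Prss55*-/- replicate 2 stood apart, and without it the difference was -0.13. With that array left out, *Col1a2* (0.052), *Col3a1* (0.096) and *Col6a1* (0.016) turned higher on their brightest probes. The other genes of this list kept their direction. Counted by any probe, the unadjusted limma p was below 0.05 for 1 of the 11 genes, *Col4a2*. Of all single tested probes 19.1% reached it. The mean log2 signal of these genes ran from 10.39 to 10.80 in *Prss55*-/- and from 10.75 to 10.89 in wt testis.

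Proteases that serpins inhibit, and inhibitors of other families, were described from lists of genes. Over the 10 lists 84 genes were tested. Counted by any probe, 1 passed the adjusted threshold as higher and 1 as lower, against 1.21% of all single tested probes. *Spint1*, the Kunitz-type inhibitor of hepatocyte growth factor activator, gave 9.94, 9.78 and 9.80 on *Prss55*-/- arrays and 9.24, 9.25 and 9.17 on wt arrays for its brighter probe. It rose by 0.62, and by 0.53 on its other probe (limma adjusted p = 0.014 and 0.010). *Cst6*, a cystatin and so an inhibitor of cysteine proteases, fell by 0.46, from 6.61, 6.51 and 6.49 on wt arrays to 6.00, 6.09 and 6.15 on *Prss55*-/- arrays (limma adjusted p = 0.036). The *Cst6* call was lost with any array but *Prss55*-/- replicate 1 left out, with normexp (a difference of -0.23, limma adjusted p = 0.104), without a filter (0.078) and by the methods' t-test (0.101). With the replicate number as a block, the *Cst6* call and both *Spint1* calls were lost. Both *Spint1* calls were also lost without *Prss55*-/- replicate 2 or replicate 3. That of its brighter probe was also lost without wt replicate 1 or wt replicate 2, and by the methods' t-test (adjusted p = 0.069).

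Among 20 tested serine proteases the differences ran from -0.61 (*Ctsg*) to 0.47 (*Masp2*, 0.75 without *Prss55*-/- replicate 2) with a median of -0.044, and among 7 cysteine proteases and caspases from -0.37 (*Casp8*) to 0.11 (*Ctsl*) with a median of -0.023. None of these passed the adjusted threshold in limma or by the methods' t-test. Counted by any probe, 4 serine proteases and 1 cysteine protease had an unadjusted limma p below 0.05. That share of genes is near the 19.1% of all single tested probes or below it. Of 12 tested cystatins 10 were lower, with a median of -0.21, and 5 had an unadjusted limma p below 0.05, all lower. Kazal inhibitors ran from -0.16 (*Spink8*) to 0.91 (*Spink3*) over 5 genes, the latter 0.23 without *Prss55*-/- replicate 2. Kunitz inhibitors ran from -0.21 (*Papln*) to 0.62 over 6, and whey acidic protein inhibitors from -0.45 (*Slpi*) to 0.10 (*Wfdc15b*) over 8. The *Slpi* probe gave 11.89, 7.28 and 10.43 on *Prss55*-/- and 10.21, 10.83 and 9.89 on wt arrays, and without *Prss55*-/- replicate 2 its difference turned to 0.84. Metalloprotease inhibitors ran from -0.32 (*Timp4*) to 0.092 (*Timp2*) over 5 genes. Of the 5 remaining inhibitors, *Pebp1* was higher by 0.055 on a probe other than its brightest. On their brightest probes all 5 were lower, by 0.0098 to 0.50. The last was *Agt*, angiotensinogen, a serpin by fold that carries another name, which differed by -0.28 without *Prss55*-/- replicate 2.

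Of 43 tested genes in 11 lists 0 passed the adjusted threshold in limma and 0 by the methods' t-test. Counted by any probe, 11 genes had an unadjusted limma p below 0.05, 4 higher and 7 lower. Of all single tested probes 19.1% did, so the units differ. The medians were -0.024 for spermatids, 0.031 for spermatocytes, -0.048 for spermatogonia, -0.033 for Sertoli cells, -0.073 for peritubular and vascular cells, -0.14 for macrophages, -0.055 for blood, 0.16 for pancreas and -0.50 for Leydig cells, and the 1 epididymis gene tested differed by 0.53. The mean log2 signal of the spermatid genes, the bulk of the tissue, ran from 17.19 to 17.25 in *Prss55*-/- and from 17.21 to 17.27 in wt testis, which overlap. These genes include probes at the top of the signal range, such as *Tnp1* at 18.85 to 18.92 and *Prm2* at 18.66 to 18.92. Quantile normalization gives all arrays the same top values, so this mean could hardly differ and does not test cell content.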

How the data were processed

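Each of 6 single-dye arrays measured the testis RNA of 1 mouse, 3 *Prss55*-/- and 3 wt. Scanner output from Agilent Feature Extraction 10.7.3.1 was deposited by the authors, with a processed signal that is a linear intensity corrected for background but not normalized between arrays. A deposited matrix holds log2 values, each column of which correlates at 0.9997 or more with its own array. The deposited log2 columns all have a median of 7.72, as after quantile normalization, the method the study names. The number of arrays limits the precision.

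Outlier spots were set aside, signals below 1 set to 1, and the log2 signals of all spots but controls quantile-normalized and averaged by probe. Testing kept the 28606 probes that every array of one or both genotypes read well above background. Genotypes were compared in limma 3.58.1 under R 4.3.3 by lmFit and eBayes (two-sided), with the Benjamini-Hochberg correction applied to these probes together. A gene passed if any probe did, and its brightest probe stood for it elsewhere. A gene with several probes thus had more ways to pass, while shares over the array were counted by probe. Serpins were chosen by name. Named with a test were *Serpine3*, *Serpini2*, probes past a threshold, and probes whose genotypes did not overlap and differed by at least 0.5. Serpins of known role were given by genotype, list genes where they passed or set a range, and genes within 1 Mb of *Serpine3* where they passed. Members and lists were chosen with earlier results of these data known. Gene symbols were matched to RefSeq (GRCm38.p6), where all 59 were found, and positions are those of the array files, whose headers name mm9. The fit was tested on simulated data. Plots and summaries used Python 3.11.15 and matplotlib 3.10.9. Results for 1 serpin gene and 1 probe sequence are not reported here, though counts over the family include them.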

Additional observations from a re-analysis of the deposited data

How the results depend on the processing

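*Serpine3* passed the limma adjusted threshold in every alternative that tested it, 13 in all, with differences of 3.32 to 4.90. Testing only probes above background on all 6 arrays left it out, and the 1 serpin gene called there was *Serpinf2*. Normexp background correction called 3 serpin genes, *Serpine3*, *Serpinf2* and *Serpini2*. Leaving out 1 array gave 1 to 3 genes, with *Serpina1b* and *Serpini2* added without *Prss55*-/- replicate 1 and *Serpina3a* without wt replicate 3. The pair of thresholds gave 2 genes, but 1 with normexp, 0 with the filter on all 6 arrays, and 1 to 4 with 1 array left out. The 4 came without *Prss55*-/- replicate 1, which added *Serpina1f* and *Serpina3n*. With 75th percentile scaling the 2 genes were *Serpine3* and *Serpina3n*. Detection gave 28 to 43 genes by the other rules. None of the 6 serpins named with a test changed sign. Of all 42 tested serpin probes 8 changed sign under some alternative. Without *Prss55*-/- replicate 2 the probes of *Serpina1c* (0.16), *Serpina9* (-0.064), *Serping1* (0.0073), *Serpina5* (0.017, its dimmer probe), *Serpinb9* (0.12, its dimmer probe) and *Serpinc1* (-0.0075) did, the last also without *Prss55*-/- replicate 1 (-0.013). The others were *Serpina10* without wt replicate 1 and the first *Serpinb2* probe with 75th percentile scaling (0.022) or normexp (0.046).

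Same-numbered mice did not deviate alike from their group means (correlations of -0.054, -0.023 and -0.11). This cannot exclude a pairing, and a figure legend of the paper speaks of pairs of wt and *Prss55*-/- mice. With the number as a replicate block, 1 serpin gene, *Serpine3*, passed the adjusted threshold, 2 passed the pair, and 13 of all tested probes passed in place of 346. Of the list genes 2 passed the adjusted threshold in the reported fit, 1 without a filter, 1 by the methods' t-test, 0 with the replicate block, 2 with normexp (*Spint1* and *Cst7* in place of *Cst6*), and 0 to 6 with 1 array left out. These alternatives for the lists and for genes near *Serpine3* were chosen after seeing the data. Over all tested probes the adjusted calls ranged from 38 to 855 with 1 array left out, and fell to 140 without a filter and 87 by the methods' t-test. The causes were not tested. Signals near background, as for *Serpini2* and *Serpina1b*, leave the size of those differences uncertain.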
